A study of Mus musculus with 20 samples.

Results

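A set of 9 genes that mark mature B cells, of 55486 genes in the count tables, was followed in bone marrow and kidney of mice given oxaliplatin or vehicle. The 9 genes were taken by symbol, and every one had a row in both tables: Ms4a1, Cd22, Cr2, Fcer2a, Cd72, Cxcr5, Blk, Fcrla and Tnfrsf13c. The question was how the level of these genes in marrow differed after repeated dosing with a platinum drug, with the kidney as a tissue that is not a site of B cell production. The oxaliplatin group received 10 mg/kg intraperitoneally each week for 8 weeks and the vehicle group received 5% dextrose, the solvent of the drug. All mice were of the C57BL/6 strain and 10 weeks old at the start, before the dosing, by the study's methods. Each of the 4 groups (2 tissues, 2 treatments) held 5 libraries that the labels number as biological replicates, here called mice 1 to 5. Whether a number names the same animal in marrow and kidney is not given in the sources used here. Marrow was spun out of femur and tibia when 6 days had passed since the final injection, so the tissue held all cells of the marrow cavity and not sorted B cells.

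B cells are made in the bone marrow, pass through pro-B and pre-B stages in which the antibody genes are rearranged, and leave for the spleen and lymph nodes as immature cells. Mature cells recirculate and return to the marrow, so marrow RNA holds precursors, newly made cells and returned cells together. The 9 genes come on at different points of this path. Ms4a1 encodes CD20, a membrane protein of the B lineage. Cd22 and Cd72 encode inhibitory co-receptors of the B cell antigen receptor. Cr2 encodes complement receptors 1 and 2, and Fcer2a encodes CD23, the low-affinity IgE receptor, both typical of mature B cells. Cxcr5 encodes the receptor for the follicle chemokine CXCL13. Tnfrsf13c encodes the BAFF receptor, through which the cytokine BAFF keeps mature B cells alive. Blk, a Src-family kinase, and Fcrla, an Fc receptor-like protein retained within the cell, are B lineage genes whose products are not exposed on the surface.

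Library totals were 30660153 to 41140527 counts in marrow and 24393007 to 30925430 in kidney. No 2 libraries of a group were alike enough to be 1 library deposited again (lowest chi-square per degree of freedom, 7.51). Although the methods name mice of both sexes, every Y-linked gene examined was above 3 counts in all 20 libraries. Levels are given as CPM, the read count normalised to the size of its library after TMM scaling, and a change was called when edgeR's quasi-likelihood test gave an adjusted p under 0.05 and the fold change was beyond 1.5. In bulk marrow, fewer B cells and less RNA per B cell cannot be told apart.

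All 9 genes lie on the minus strand of the GRCm38 assembly in the GENCODE annotation. Fcrla spans chr1:170917576-170927583 and Cr2 spans chr1:195136811-195176716. Cd72 lies at chr4:43446462-43454628, Cd22 at chr7:30865402-30880342 and Fcer2a at chr8:3681737-3694175. Cxcr5 lies at chr9:44511787-44561877, Blk at chr14:63372836-63417037, Tnfrsf13c at chr15:82221743-82224369 and Ms4a1 at chr19:11249675-11266241. Of these genes, 3 share exonic bases with a gene on the other strand, and the sources used here do not state whether counting used strand. For Cd72 the shared bases were 41.6% of its exons, with Tesk1, which was 13.4 ± 1.13 CPM in vehicle and 14.8 ± 2.05 CPM in oxaliplatin-treated marrow (SD, n = 5) and was not called by edgeR (adjusted p = 0.423). For Cxcr5 they were 3.30%, with Bcl9l, which rose (log2 fold change 0.59 ± 0.11 SE). For Cd22 they were 9.50%, with Gm29439, which had no count in any marrow library.

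The stretches directly before the start site are shown for the pair of genes with the largest and the pair with the smallest change in marrow, as the reference sequence that the comparison concerns. Each is the last 120 bases before the RefSeq start site (GRCm38.p6), read 5′ to 3′ on the minus strand. Capitals mark a match on either strand to GAGGAA, the core bound by PU.1, to CAGGTG, an E-box bound by E proteins such as E2A, or to CCCNNGGG, the core of the EBF1 site.
Fcrla, chr1:170927584-170927703: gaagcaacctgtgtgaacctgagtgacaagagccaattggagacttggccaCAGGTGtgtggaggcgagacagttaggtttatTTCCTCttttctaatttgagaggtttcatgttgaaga
Cd72, chr4:43454627-43454746: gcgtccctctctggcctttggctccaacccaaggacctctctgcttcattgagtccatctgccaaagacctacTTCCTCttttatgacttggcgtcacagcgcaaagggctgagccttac
Cd22, chr7:30879029-30879148: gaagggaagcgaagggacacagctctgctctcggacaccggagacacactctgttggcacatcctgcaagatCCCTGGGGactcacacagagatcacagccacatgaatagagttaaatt
Tnfrsf13c, chr15:82224381-82224500: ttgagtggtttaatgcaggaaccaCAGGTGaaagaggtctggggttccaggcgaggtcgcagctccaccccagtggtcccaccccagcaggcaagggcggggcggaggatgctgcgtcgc

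Promoter entries were at hand for 6 of the 9 genes, with 8 windows in all because Fcer2a has 3 start sites. In the 250 bases before the start site, CAGGTG was found in 5 of the 8 windows, 1 each of Fcrla, Cr2, Cd22, Fcer2a and Tnfrsf13c, and 17.2% of 32851 promoter windows of the same length hold it. GAGGAA was found in 2 of the 8 windows, those of Fcrla and Cd72, against 23.3% of all windows, and CCCNNGGG in 1, that of Cd22, against 11.8%. The octamer ATTTGCAT was found in none of the 8 windows and in 1.60% of all windows. These matches describe letters in the reference and not bound sites.

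In bone marrow, all 9 genes were lower in oxaliplatin-treated than in vehicle mice, and all 9 were called. Of the 22363 genes tested, 11.8% were called lower. The changes ran from 9.99-fold lower for Fcrla to 1.5-fold lower for Tnfrsf13c, with a median log2 fold change of -1.99 beside -0.04 over all genes tested. The groups did not overlap for 8 of the 9, all treated mice being below all vehicle mice, which held for 13.5% of the genes tested. The exception was Tnfrsf13c.

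**Figure D1:**
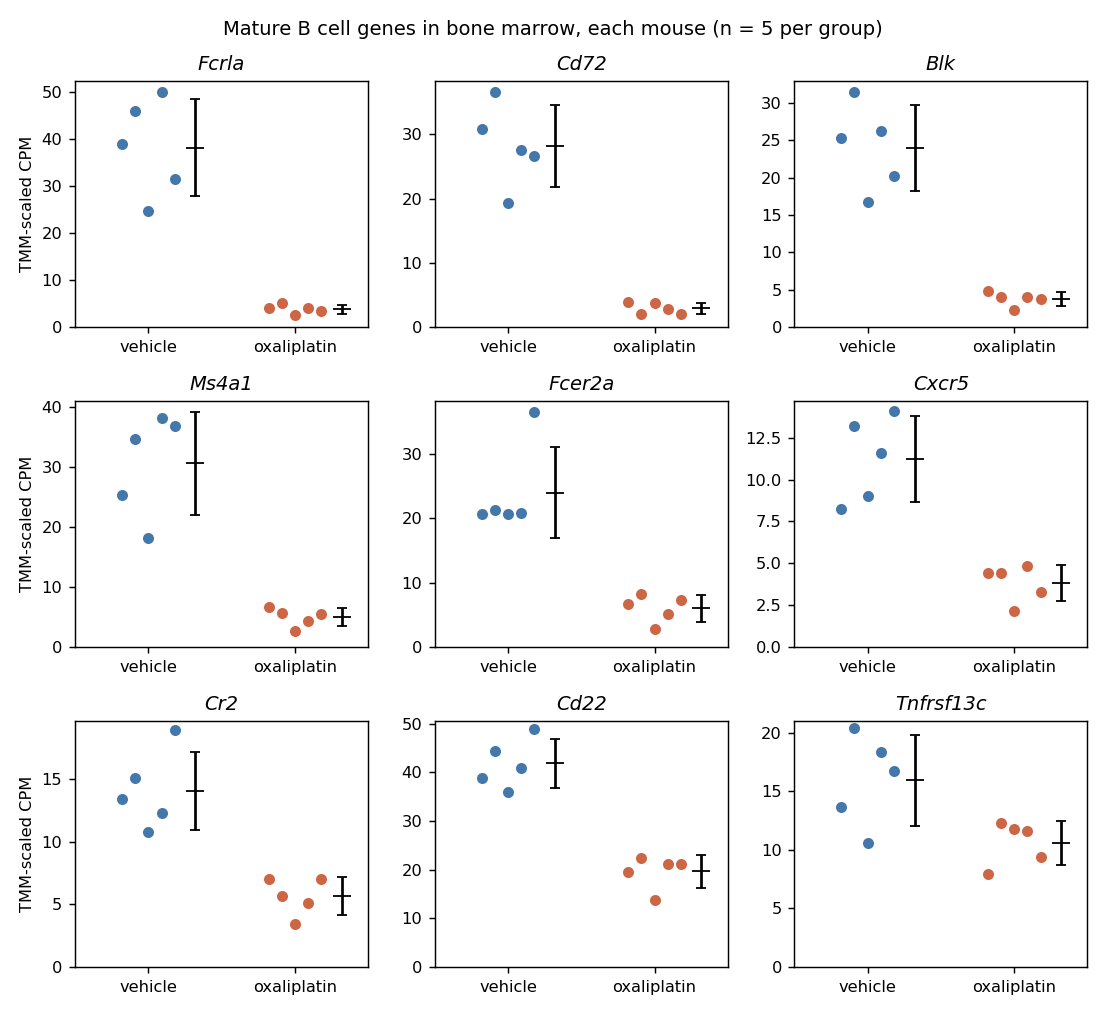
CPM after TMM scaling (vertical axis, starting at 0, its range set for each gene) of the 9 genes in each marrow library of the vehicle (blue) and oxaliplatin (orange) groups. Points are mice, the bar beside each set is the mean ± SD (n = 5), and the groups are apart for every gene except Tnfrsf13c.

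The intracellular pair held the gene with the largest change. Fcrla was 39.0, 45.9, 24.7, 50.0 and 31.5 CPM in vehicle mice 1 to 5 and 4.00, 5.08, 2.52, 4.07 and 3.50 CPM in oxaliplatin mice 1 to 5. The lowest vehicle mouse was thus several times above the highest treated mouse, and the log2 fold change was -3.32 ± 0.22 (SE; edgeR adjusted p = 4.3e-07). Blk was 25.2, 31.4, 16.7, 26.2 and 20.2 CPM in the vehicle mice and 4.84, 4.11, 2.31, 4.05 and 3.83 CPM in the treated mice. Its groups were also far apart, with a log2 fold change of -2.65 ± 0.21 (edgeR adjusted p = 1.5e-06).

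The inhibitory co-receptors differed in size of change. Cd72, the receptor for the semaphorin CD100, was 30.8, 36.5, 19.3, 27.6 and 26.6 CPM in vehicle mice and 3.92, 2.13, 3.73, 2.78 and 2.08 CPM in oxaliplatin mice. Its log2 fold change was -3.26 ± 0.22 (edgeR adjusted p = 4.6e-07), and its mean went from 28.2 ± 6.31 to 2.93 ± 0.867 CPM (SD, n = 5). Cd22, a lectin that binds sialic acid, was 38.9, 44.3, 36.0, 40.9 and 48.8 CPM in vehicle mice and 19.6, 22.4, 13.8, 21.2 and 21.2 CPM in oxaliplatin mice. The groups did not overlap, but Cd22 fell 2.13-fold against 9.60-fold for Cd72 (log2 fold change -1.09 ± 0.13, edgeR adjusted p = 4.4e-05).

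Ms4a1 (CD20) was 25.3, 34.7, 18.1, 38.1 and 36.8 CPM in vehicle mice and 6.63, 5.77, 2.61, 4.43 and 5.50 CPM in oxaliplatin mice. This was a 6.15-fold fall with no overlap (log2 fold change -2.62 ± 0.26, edgeR adjusted p = 9.8e-06).

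Of the receptors for IgE and complement, Fcer2a had the median change of the 9 genes and Cr2 fell less. Fcer2a (CD23) was 20.7, 21.2, 20.6, 20.9 and 36.5 CPM in vehicle mice and 6.71, 8.18, 2.80, 5.19 and 7.31 CPM in oxaliplatin mice. Vehicle mouse 5 stood apart from the other 4, which were within 1 CPM of each other, and the log2 fold change was -1.99 ± 0.27 (edgeR adjusted p = 9.6e-05). Without that mouse it was -1.79 by the same test. Cr2 was 13.4, 15.1, 10.7, 12.3 and 18.9 CPM in vehicle mice and 7.06, 5.64, 3.40, 5.10 and 7.06 CPM in oxaliplatin mice, a 2.50-fold fall (log2 fold change -1.32 ± 0.21, edgeR adjusted p = 0.00035). Vehicle mouse 5 was also the highest for Cr2.

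The chemokine receptor Cxcr5 was 8.23, 13.2, 9.01, 11.6 and 14.1 CPM in vehicle mice and 4.41, 4.42, 2.17, 4.85 and 3.32 CPM in oxaliplatin mice. The groups did not overlap, and it fell 2.93-fold (log2 fold change -1.55 ± 0.23, edgeR adjusted p = 0.00020).

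Tnfrsf13c, the BAFF receptor, changed least. It was 13.7, 20.4, 10.6, 18.4 and 16.8 CPM in vehicle mice and 7.95, 12.3, 11.8, 11.6 and 9.35 CPM in oxaliplatin mice. Only treated mice 1 and 5 were below every vehicle mouse, and the log2 fold change was -0.59 ± 0.18 (95% interval -0.99 to -0.19, edgeR adjusted p = 0.0253). The 1.5-fold fall sat on the threshold. The call was lost in 8 of the 9 alternatives, among them DESeq2 (log2 fold change -0.54), library size alone (-0.44) and no filter on low counts (-0.58). The 8 also include the cut beyond a 2-fold change and the test against a 1.5-fold change, which a 1.5-fold fall could not pass. The call held only when at least 10 counts were required in every library. It was also lost when any one of vehicle mice 2, 4 and 5 or oxaliplatin mice 1 and 5 was left out (-0.49 to -0.57), while the value stayed below 0 in each.

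**Figure D2:**
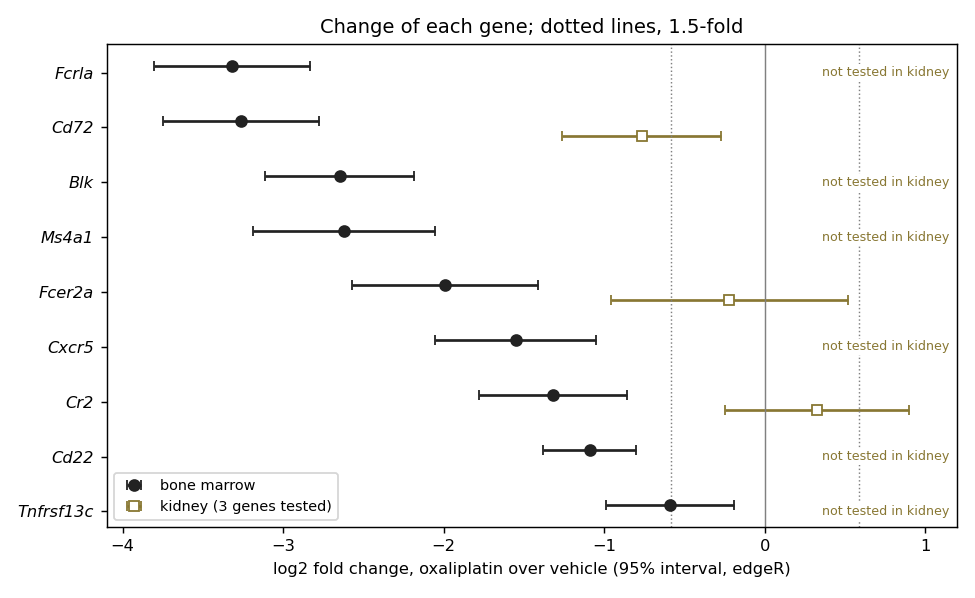
Log2 fold change of each gene, oxaliplatin over vehicle, with its 95% interval from edgeR, in bone marrow (filled circles) and kidney (open squares, the 3 genes with enough counts). Dotted lines mark a 1.5-fold change, and the marrow values run from -3.32 for Fcrla to -0.59 for Tnfrsf13c.

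The 9 genes did not fall by the same factor, and this could be seen without any scaling between libraries by taking each gene as a share of the summed counts of the 9 in the same mouse. Tnfrsf13c made up 6.93% ± 0.647 of these counts in vehicle mice and 17.8% ± 5.24 in oxaliplatin mice (SD, n = 5). Cd22 went from 18.6% ± 2.12 to 31.9% ± 1.61. The shares of both were higher in every treated mouse than in any vehicle mouse. Fcrla went from 16.7% ± 3.00 to 6.19% ± 0.702 and Cd72 from 12.3% ± 1.66 to 5.00% ± 2.17. Blk and Ms4a1 had lower shares too (10.5% to 6.18% and 13.2% to 7.98%), with no overlap between groups for any of these 4. The shares of Fcer2a, Cr2 and Cxcr5 overlapped.

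**Figure D3:**
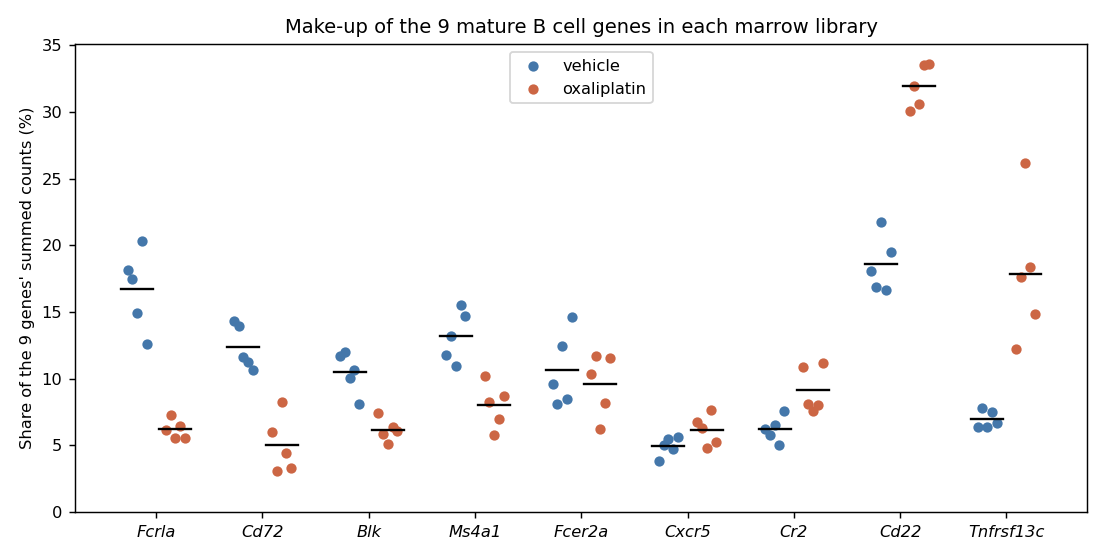
Each gene as a percentage of the summed counts of the 9 genes in the same marrow library (vertical axis), for vehicle (blue) and oxaliplatin (orange) mice. Points are mice and lines are group means. Tnfrsf13c and Cd22 took a larger share in every treated mouse, and Fcrla, Cd72, Blk and Ms4a1 a smaller one.

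In order of change the genes were Fcrla, Cd72, Blk, Ms4a1, Fcer2a, Cxcr5, Cr2, Cd22 and Tnfrsf13c. For each of the 8 neighbouring pairs in this order the ratio of both genes within a mouse overlapped between the groups, so neighbours could not be ranked. Of all 36 pairs, 20 had ratios that did not overlap between vehicle and oxaliplatin mice. These counts are descriptions, since the pairs share genes and mice, and pairs of other genes were not counted for comparison.

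Each gene was also set against the signalling chains of the antigen receptor in the same mouse. The same reference is subtracted from every gene of a mouse, so this adds no evidence on their order. It shows only which genes fell more or less than the reference. The reference was the mean log2 CPM of Cd79a and Cd79b. Cd79b fell from 63.5 ± 16.9 to 13.4 ± 1.70 CPM (SD, n = 5) and Cd79a fell by 2.22 ± 0.18 on the log2 scale (SE), both called by edgeR. Relative to these, Tnfrsf13c was higher by 1.63 and Cd22 by 1.10 log2 units in treated mice, without overlap between groups. Fcrla and Cd72 were lower by the same measure, with differences of -1.11 and -1.09 and no overlap. Ms4a1, Blk, Fcer2a, Cxcr5 and Cr2 kept ratios that overlapped between groups, with differences of -0.43, -0.45, 0.16, 0.62 and 0.86. The share of all tested genes without overlap by this measure was not examined.

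Divided by exon length, the order of levels also differed between groups. In vehicle marrow Fcrla was highest at 21.9 ± 5.93 CPM per kb of exon and Cr2 lowest at 1.74 ± 0.384 (SD, n = 5). Blk, Cd22, Cd72, Tnfrsf13c and Fcer2a lay between 7.75 and 8.88 CPM per kb, with SDs of 0.984 to 2.27, and neighbours in this order differed by less than either SD, with Ms4a1 at 4.95 and Cxcr5 at 3.37. In oxaliplatin-treated marrow Tnfrsf13c was highest at 5.18 ± 0.914 CPM per kb and Cd22 followed at 3.89 ± 0.676. Fcrla came next at 2.20 ± 0.534, close to Fcer2a at 1.95 ± 0.684. The others lay between 0.697 (Cr2) and 1.42 (Blk) CPM per kb.

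Mice of the same group differed in the level of the genes as a set. Vehicle mouse 3 was the lowest of its group for 8 of the 9 genes and oxaliplatin mouse 3 for 7 of the 9. Summed over the 9 genes the vehicle mice were at 215.3, 262.8, 165.6, 246.0 and 250.2 CPM and the oxaliplatin mice at 65.1, 70.0, 45.1, 63.3 and 63.1 CPM. Markers of other cells also varied among mice. Skeletal muscle genes summed to 109.8 CPM in vehicle mouse 3 and 843.9 CPM in oxaliplatin mouse 3, the highest of each group. Vehicle mouse 5 had a similar muscle sum (103.0 CPM) and one of the higher sums of the 9 genes, and the part of muscle tissue in the levels was not tested. Without oxaliplatin mouse 3, and without each other mouse in turn, the number of genes called lower stayed at 8 or 9, and only Tnfrsf13c was ever lost.

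After the group means were subtracted, Ms4a1 followed the mean of the other 8 genes most closely over the 10 mice (Pearson r = 0.93), and Cd22, Cxcr5, Blk, Fcrla, Cr2 and Fcer2a had r between 0.61 and 0.83. Tnfrsf13c (r = 0.27) and Cd72 (r = -0.02) did not track the others. Those values rest on mouse 3 of each group: without these 2 mice r was 0.61 for Ms4a1 and 0.71 for Cxcr5 and lay between -0.09 and 0.37 for the other 7. The 10 genes outside the set with the closest pattern were Bcl9, Rasgrp1, Cd2, Lbh, Pik3ap1, Sgk1, Nagk, Gm4759, 1300014J16Rik and Cd3e, with r from 0.91 to 0.94 (0.55 to 0.76 without the same 2 mice). Of these, Cd2 and Gm4759 fell and Sgk1 rose with treatment, and 7 were not called. All points share the scaling of the same 10 libraries.

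Genes of antigen receptor signalling did not all follow the 9 mature B cell genes. Of 15 tested, 4 fell and 1 rose, where 11.8% of all tested genes were called lower and 11.6% higher, with a median log2 fold change of -0.33. The 4 were Cd79a, Cd79b and the B cell adaptors Blnk and Bank1, which are largely B cell genes. Signalling enzymes that other blood cells also use were not called, and whether that use bears on their values was not tested. Among them were the kinases Syk and Lyn, the phospholipase Plcg2 and the phosphatase Inpp5d, at log2 fold changes of -0.33, -0.13, -0.17 and -0.20. Prkcb, Pik3ap1 and Ptpn6 were not called either, at larger changes of -0.56, -0.42 and -0.37. Syk, Prkcb and Pik3ap1 had edgeR adjusted p of 0.033, 0.032 and 0.011 and missed only the fold threshold. For Syk every treated mouse was below every vehicle mouse. The kinase Btk was at 0.54 ± 0.11 (edgeR adjusted p = 0.0024), higher in every treated than in any vehicle mouse but below the fold threshold. Cd81, a tetraspanin that many cells express, rose by 0.65 ± 0.10 on the log2 scale.

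Among 18 other genes used in B cells 12 fell and 2 rose, with a median of -0.85. Fcmr, the IgM Fc receptor, fell by 2.48 ± 0.30, Ighd, the constant region of IgD, by 1.92 ± 0.33, and H2-Ob, a class II chaperone subunit, by 1.81 ± 0.23 on the log2 scale. Fcgr2b, the inhibitory IgG receptor also found on myeloid cells, rose by 1.54 ± 0.17. Of 9 transcription factors of the B lineage 8 fell (median -1.64). Spib, an Ets factor related to PU.1, went from 106 ± 25.5 to 9.15 ± 1.21 CPM, and Bach2, Pax5, which holds B cell identity, and Ikzf3 fell by 2.91, 2.82 and 1.95 on the log2 scale. Foxo1 did not pass the fold threshold (-0.50).

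Several precursor genes, among them Vpreb1, Igll1, Rag1 and Dntt, varied more among treated mice, relative to their means, than the mature genes did. Il7r, Lef1 and Myb did not. Of 12 pre-B genes 7 fell and 5 were not called, with a median of -1.52. Rag1, one of the recombinase subunits, had 0 to 628 counts in treated mice and 937 to 2449 in vehicle mice (log2 fold change -3.40 ± 1.09, edgeR adjusted p = 0.037). Vpreb1, Igll1, Rag1 and Dntt together were at 0.691, 1.91, 63.3, 35.9 and 2.67 CPM in oxaliplatin mice 1 to 5, against 56.3 to 128.3 CPM in vehicle mice. All 12 together ranged less widely, at 169.7 to 361.2 CPM in treated and 454.4 to 671.2 CPM in vehicle mice. In the same treated mice the 9 mature genes summed to 45.1 to 70.0 CPM, and mouse 3, with the highest precursor sum, had the lowest mature sum. Oxaliplatin mice 3 and 4 also had the lowest neutrophil gene sums (9636 and 11446 CPM, against 21478 to 27016 CPM in the other 3).

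Of 8 plasma cell genes tested 4 rose, 1 fell and 3 were not called, with a median of 0.82. Jchain, the joining chain of secreted IgM and IgA, went from 128 ± 24.8 to 326 ± 122 CPM, and Sdc1 (CD138), Xbp1 and Prdm1 rose by 1.16, 0.82 and 0.81 on the log2 scale. Irf4, which B cells and plasmacytoid dendritic cells also express, fell by 1.74 ± 0.23.

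Among ligands, partners and other chemokines listed beside the 9 genes, 13 of 15 were tested and 1 rose. Cxcl13, the ligand of CXCR5, had 0 to 11 counts in vehicle mice and 65 to 784 in treated mice (log2 fold change 5.82 ± 0.80, edgeR adjusted p = 0.00017), and every treated mouse was above every vehicle mouse. Tnfsf13b (BAFF), the ligand of Tnfrsf13c, was 23.6 ± 3.89 CPM in vehicle and 13.8 ± 6.88 CPM in treated mice and was not called (edgeR adjusted p = 0.076). Tnfrsf13b (TACI), a receptor that binds both BAFF and APRIL, was 32.3 ± 5.02 and 30.0 ± 4.75 CPM with a log2 fold change of -0.11 ± 0.14. Tnfsf13 (APRIL) and Tnfrsf17 (BCMA) were low, with log2 fold changes of 0.12 ± 0.28 and 0.91 ± 0.34. Traf2, Traf3, Map3k14 and Nfkb2, which carry the BAFF receptor signal, had values between -0.33 and 0.03. Sema4d (CD100), the ligand of CD72, was at -0.47 ± 0.12, below the fold threshold, and St6gal1, which makes the sialic acid linkage that CD22 binds, was at -0.28 ± 0.18. C3, the source of the CR2 ligand, was at -0.46 ± 0.19. Cxcl12, a chemokine that is not a ligand of the 9, was at 0.49 ± 0.15. Ccl19 and Ccl21a, also not ligands of the 9, had too few counts to test.

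Markers of other cells changed in the same libraries, and their part in the B cell values was not tested. Of 9 plasmacytoid dendritic cell genes 6 fell, among them Klk1 (-3.25), Siglech (-2.82) and Ccr9 (-1.89), and their summed level was 178.3 to 199.6 CPM in vehicle and 114.1 to 160.7 CPM in treated mice. All 9 erythroid genes fell (median -2.77, summed level 24740 to 42546 against 3220 to 7774 CPM). All 9 adipocyte genes rose (summed level 180.0 to 276.6 against 958.0 to 3538 CPM), 6 of 7 skeletal muscle genes rose (11.2 to 109.8 against 48.7 to 843.9 CPM), and 4 of 9 macrophage genes rose (1198 to 1578 against 1329 to 2575 CPM). Of 12 T cell genes, Cd4 and Cd2 fell (-1.47 and -1.42) while the CD3 chains Cd3d, Cd3e and Cd3g were not called. Of 8 NK cell genes 4 fell, among them Eomes (-0.74) and Ncr1 (4.64 ± 0.636 to 2.32 ± 0.881 CPM). The 10 neutrophil genes had log2 fold changes from -0.52 to -0.06.

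**Figure D4:**
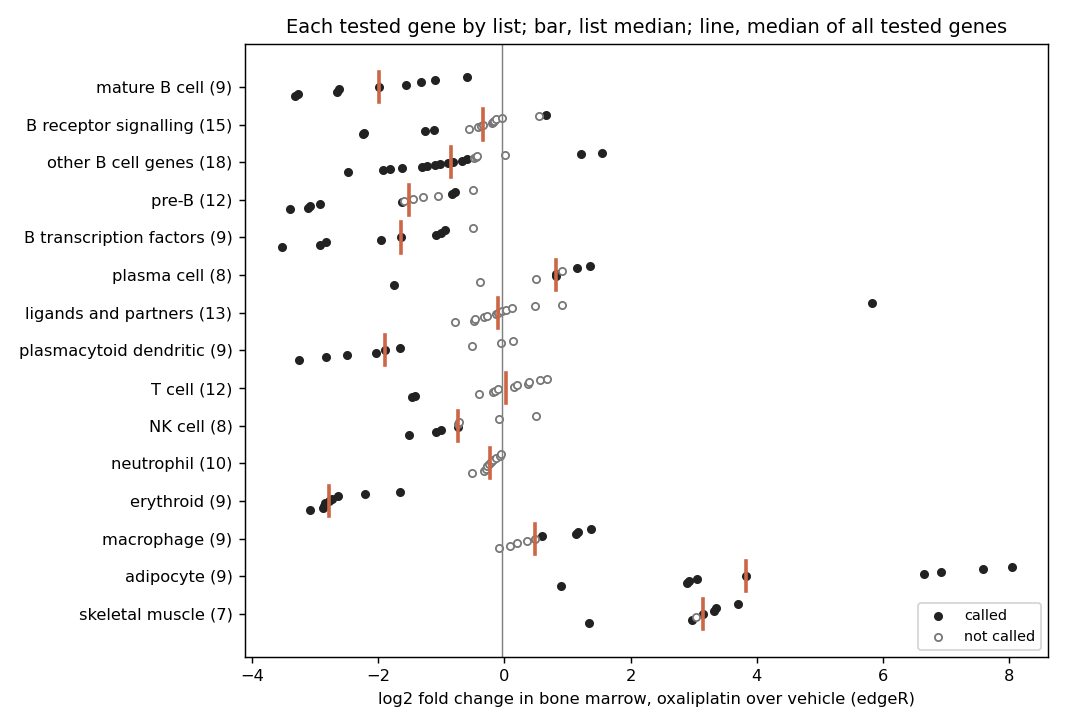
Log2 fold change in bone marrow (horizontal axis) of every tested gene of each list, with the number tested in brackets. Filled points were called, orange bars are list medians and the vertical line is the median of all genes tested, -0.04. The 9 mature B cell genes are the top row, with a median of -1.99.

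In kidney the 9 genes were low, and 6 of them were near the limit of counting. In the vehicle groups every one of the 9 was higher in marrow than in kidney, from a log2 difference of 2.68 for Cr2 to 7.76 for Fcrla. Of 24321 genes, 38.3% were called higher in marrow. With kidney counts too low for the filter, 6 of the 9 entered this comparison through their marrow counts. The genes were also chosen as B cell genes, so the direction describes their levels and is not a test. For 6 of the 9 there were too few kidney counts to test the treatment. Ms4a1 had 4, 8, 0, 2 and 4 counts in the vehicle kidneys and 0, 0, 0, 2 and 1 in the treated kidneys. Fcrla had 0 to 5 and 0 to 2 counts, Blk 1 to 7 and 0 to 4, Tnfrsf13c 1 to 9 and 0 to 2, Cxcr5 2 to 13 and 0 to 15, and Cd22 5 to 15 and 2 to 20. At these depths 3 counts were 0.090 to 0.130 CPM, and these 6 genes were not tested within kidney.

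**Figure D5:**
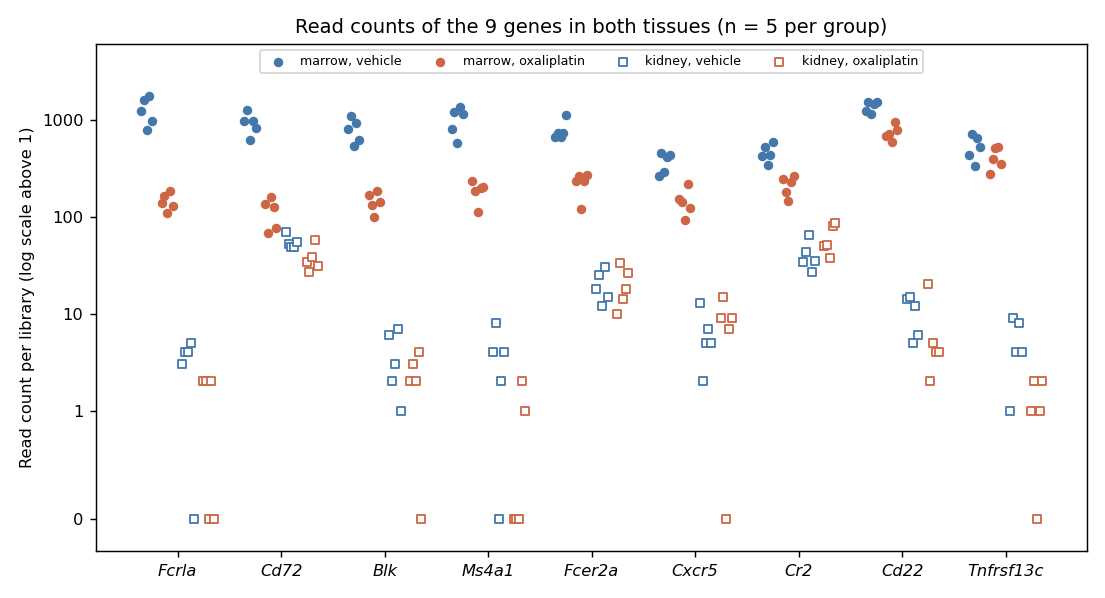
Read counts of the 9 genes in each library (vertical axis, logarithmic above 1 and linear below) for marrow (filled circles) and kidney (open squares), vehicle in blue and oxaliplatin in orange (n = 5 per group). Every marrow count is above 60, while 6 of the genes stay at 0 to 20 counts in kidney.

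Of the 3 genes tested in kidney, Cd72 was called lower, where 3.81% of 19293 genes were called lower. Cd72 was 2.61, 1.98, 2.12, 1.97 and 2.23 CPM in vehicle and 1.22, 0.909, 1.37, 2.00 and 0.930 CPM in treated kidneys. Treated mouse 4 overlapped the vehicle mice, and the log2 fold change was -0.77 ± 0.23 (edgeR adjusted p = 0.0199). This call was lost without vehicle mouse 1 (-0.69), without oxaliplatin mouse 5 (-0.66) and with library size alone (-0.63). In the same kidneys 5 of 8 macrophage genes fell, among them Adgre1 (-1.07) and C1qc (-0.96). The list's summed level was 190.6 to 227.0 CPM in vehicle and 122.4 to 151.1 CPM in treated mice, and the part of macrophages in the Cd72 value was not tested. Cd72 also shares 41.6% of its exon bases with Tesk1 on the other strand. The part of Tesk1 reads in the kidney counts was not tested either. Cr2 was 1.64 ± 0.663 CPM in vehicle and 2.04 ± 0.616 CPM in treated kidneys (log2 fold change 0.33, 95% interval -0.25 to 0.90, edgeR adjusted p = 0.389). Fcer2a was 0.792 ± 0.284 and 0.677 ± 0.288 CPM (log2 fold change -0.22, 95% interval -0.96 to 0.52, edgeR adjusted p = 0.672).

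The difference between the tissues was tested in 1 edgeR model over the 20 libraries, as the marrow change minus the kidney change. For Cd72 it was -2.43 ± 0.32 (SE, adjusted p = 5.7e-06), for Fcer2a -1.73 ± 0.43 (adjusted p = 0.0040) and for Cr2 -1.60 ± 0.35 (adjusted p = 0.0015), all 3 lower in marrow. Of 24321 genes, 30.1% passed either way and 13.1% with a lower response in marrow. Cxcr5, Blk, Fcrla, Cd22 and Ms4a1 did not pass (adjusted p = 0.052, 0.082, 0.188, 0.753 and 0.914), and with their kidney counts near 0 no difference can be read from them. Tnfrsf13c passed in the other direction (1.73 ± 0.63, adjusted p = 0.042) on kidney counts of 1 to 9 and 0 to 2, and this was lost for 12 of the 20 libraries when each was left out in turn. With DESeq2, 5 of the 9 had a lower response in marrow, Cxcr5 and Blk being added.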

How the data were processed

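Bulk RNA-seq counts of bone marrow and kidney were used, 5 libraries per group. The authors deposited raw read counts per gene (1 table per tissue, 55486 genes after repeated lines and 1 line with a missing value were removed). The submitters' processing notes name STAR, featureCounts and Salmon, and the methods Ensembl annotation and uniquely aligned, unambiguous reads; the strand setting is not given in the sources used here. The labels describe ribosomal RNA depletion with random hexamers.

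The 9 genes and the comparison lists were chosen with earlier results of these data known. Counts were filtered with filterByExpr (minimum count 10), scaled by TMM and tested with edgeR 4.0.16 (robust quasi-likelihood, R 4.3.3) over all genes, Benjamini-Hochberg adjusted, and called at 0.05 with a change of over 1.5-fold. Standard errors were taken from the test statistic. The script was tested on simulated data. Named genes were the 9 and the list of ligands, partners and other chemokines. From each other list up to 4 were named, with the largest change at a mean of at least 1 log2 CPM. A few others were chosen after their values were seen. Alternatives used DESeq2 1.42.0, other scalings, filters and folds, a replicate block, a Y-linked covariate and each library left out. Library totals, 24393007 to 41140527 counts, set the precision. A gene of the signalling list is not reported here. Positions came from GENCODE M21 and promoters from RefSeq.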

Additional observations from a re-analysis of the deposited data

Results flagged for a closer look

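Fcer2a in vehicle marrow had 1 mouse far from the other 4: mouse 5 was at 36.5 CPM (1123 counts) and the next highest at 21.2 CPM. In treated kidney, mouse 1 stood apart for Cd22 at 0.718 CPM (20 counts), with the next at 0.180 CPM. Of 36 groups of 5 libraries examined over the 9 genes, these 2 were beyond Dixon's 95% limit, and chance passes about 1 group in 20.

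By edgeR's interaction test the response to oxaliplatin differed between the tissues for 4 of the 9 genes, where 30.1% of 24321 genes passed either way. As marrow minus kidney on the log2 scale, Cr2 (-1.60), Fcer2a (-1.73) and Cd72 (-2.43) were lower. Tnfrsf13c (1.73) went in the other direction on 0 to 9 kidney counts, too few to test within kidney. Its pass was lost when some single libraries were left out.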

How the results depend on the processing

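In marrow, 8 of the 9 genes kept their call and direction under every alternative run, and Tnfrsf13c kept its direction, between -0.71 and -0.44, with adjusted p from 0.0072 to 0.78. The marrow calls numbered 5221, 3231 beyond a 2-fold change and 2730 when tested against a 1.5-fold change, an alternative added after the data were seen. In kidney they numbered 2216, 941 and 454. Kidney genes of the 9 called lower went from 1 to 0 beyond a 2-fold change, with library size alone and when tested against a 1.5-fold change, and ranged from 0 to 1 with a library left out. Those with a lower response in marrow than in kidney went from 3 to 5 with DESeq2. With library size alone the share of calls that were higher moved from 49.6% to 63.4% in marrow and from 66.8% to 82.7% in kidney, and the median of all genes to 0.11 and 0.16. The Ms4a1 difference between tissues changed sign with library size alone (-0.0052) and ranged from -0.44 to 1.06 with a library left out; that of Cd22 ranged from -0.50 to 0.65. The cause was not tested, and both rest on kidney counts near 0.

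The main tests did not pair samples by replicate number. Vehicle and oxaliplatin marrow libraries of the same number, which are different mice, deviated with r from -0.12 to 0.23, and 2 of 10 correlated best with their own number. For marrow and kidney of the same number, r was -0.09 to 0.05 in vehicle and -0.08 to 0.21 in oxaliplatin libraries. These values do not settle whether a number names the same mouse in both tissues. With the replicate block 4968 marrow genes were called and Tnfrsf13c was not (-0.57). For a gene near 0 counts in kidney, depth limits any statement.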
